A study of Caenorhabditis elegans with 47 samples.

Results

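GFP::degron worms were compared at 8 hours (T8) and 12 hours (T12) after a shift to 25 °C, the step at which the developmental factor lin-29 and 4 of 23 P granule and germline small RNA genes rose, against 1.02% of all genes, 6 of 33 astacin proteases fell, against 1.03% of all genes, and all 5 measured furrow collagens were higher, 1 of them past the test. The samples were chosen by their titles, as all GFP::degron samples at T8 (4 arrays) and at T12 (5 arrays), 9 of the 47 arrays in the series. Per the labels, both groups express GFP::degron, a green fluorescent protein fused to a degron, a peptide that targets its carrier to the degradation machinery. All worms of the series grew at 16 °C on NGM plates with OP50 bacteria until early in the third larval stage, were moved to 25 °C, and were collected every 4 hours from T0 to T20. The other genotypes express GFP alone or Abeta, the peptide of Alzheimer's disease plaques, and arrays of one genotype at one time are labelled as biological repeats. The promoter and tissue of the transgene, any other allele and the age in hours at the shift are not stated in the labels. Whole worms were measured, so fewer cells of a type and less RNA per cell cannot be told apart.

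The larval epidermis of Caenorhabditis elegans builds a new collagen cuticle in each larval stage and sheds the old one at a molt. Collagen, protease and secreted-protein genes are switched on and off in a fixed order within each such cycle, with the furrow collagens, which form the rings around the body, among the early ones. Over the same larval stages the germline multiplies, enters meiosis and in hermaphrodites first makes sperm, and the shift from larval to adult epidermis is set by the heterochronic genes, of which lin-29 acts last.

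Values are log2(intensity + 1) with each array's median set to 0, so a value of 1 lies 1 log2 unit above the median probe set of its array. Median intensities of the 9 arrays were 81.9 to 106.6, and 13.1% to 22.5% of their probe sets were dimmer than 16. T8 repeat 1 stood apart from the other T8 arrays. It had 21.1% of probe sets below that intensity, against 13.1% to 13.9% in the other T8 arrays, and its mean correlation with its own group was 0.954 against 0.969 to 0.971. The T12 arrays had 15.6%, 22.5%, 20.0%, 14.3% and 18.1% below it, with own-group correlations of 0.958 to 0.963. Thus the T8 arrays other than repeat 1 had smaller dim shares than every T12 array. The bearing of this on dim genes was not tested. T8 repeat 4 was the array with the lowest furrow collagens. The gene gtnt-8, chosen because its values separate the genotypes and therefore no check of the labels, was at 1.49 to 2.07 in the 9 GFP::degron arrays and at -6.75 to -3.32 in 16 GFP and Abeta arrays of the same times. One dim array, GFP T8 repeat 3, had a median of 20.3 against 60.1 to 108.7 in the other 46 and was left out of the fit.

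Between T8 and T12, 352 of 17118 genes passed the test (2.06%, limma with Benjamini-Hochberg adjusted p under 0.05), 175 higher at T12 (1.02%) and 177 lower (1.03%). The median difference was 0.80 among the higher genes and -0.98 among the lower ones, which are the values that chose them. In 686 genes (4.01%) every T12 array lay above every T8 array, and in 752 (4.39%) below, and of the called genes 143 of the higher and 151 of the lower were separated in this way. These calls rest on a spread estimated from 37 arrays of 3 genotypes at T8, T12 and T16. The 9 compared arrays alone gave 4 calls, 3 of them among the 352, although 3247 genes had an unadjusted p under 0.05, and limma's array weights gave 2666 from the 37 arrays. The count was 177 without T8 repeat 2, 64 without T8 repeat 4, 144 without T12 repeat 2 and 159 without T12 repeat 3. Without T8 repeat 1, 359 genes were called, 245 higher and 114 lower, and 222 of them were among the 352.

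The 4 genes called from the 9 arrays alone were lips-14 (difference 1.48, adjusted p = 0.00827), nep-8 (2.58, adjusted p = 0.00827), Y53C10A.1 (1.47, adjusted p = 0.0353) and sms-5 (-1.07, adjusted p = 0.0353). Of these, nep-8 did not pass in the fit of 37 arrays, with an adjusted p of 0.109. None of the 61 called genes with full values given here was called from the 9 arrays alone, and all 61 kept their direction there. Their adjusted p in that limma fit ran from 0.0502, shared by several such as ZK1025.1, nas-1, nas-8 and pugs-8, to 0.182 for dgk-3. In the fit of 37 arrays, 16 of the 61 stayed called whichever GFP::degron array of T8 or T12 was left out: col-79, ZK1025.1, rpn-6.2, Y57A10A.3, Y73B3B.3, Y43F11A.6, F23D12.1, lin-29, his-62 and pugs-8 among the higher genes, and nas-1, nas-8, grl-1, T01B7.1, T22B7.7 and T28C12.6 among the lower ones. The other 45 lost their call in at least 1 such fit.

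Level, the mean log2 intensity over the 9 compared arrays, and direction went together. Genes with a mean log2 intensity under 4 had a median difference of -0.39 (2976 genes), those from 4 to 6 one of -0.16 (4443 genes), those from 6 to 8 one of -0.01 (4642 genes), those from 8 to 10 one of 0.08 (3683 genes) and those from 10 upwards one of 0.08 (1374 genes). Called lower genes were dimmer than called higher ones, with medians of 6.92 and 8.06, and 14 of the lower but 0 of the higher were under 4. The same tilt was measured in GFP and Abeta worms, where genes under 4 had medians of -0.60 and -0.54. Its part in the falls of dim genes was not tested.

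**Figure D1:**
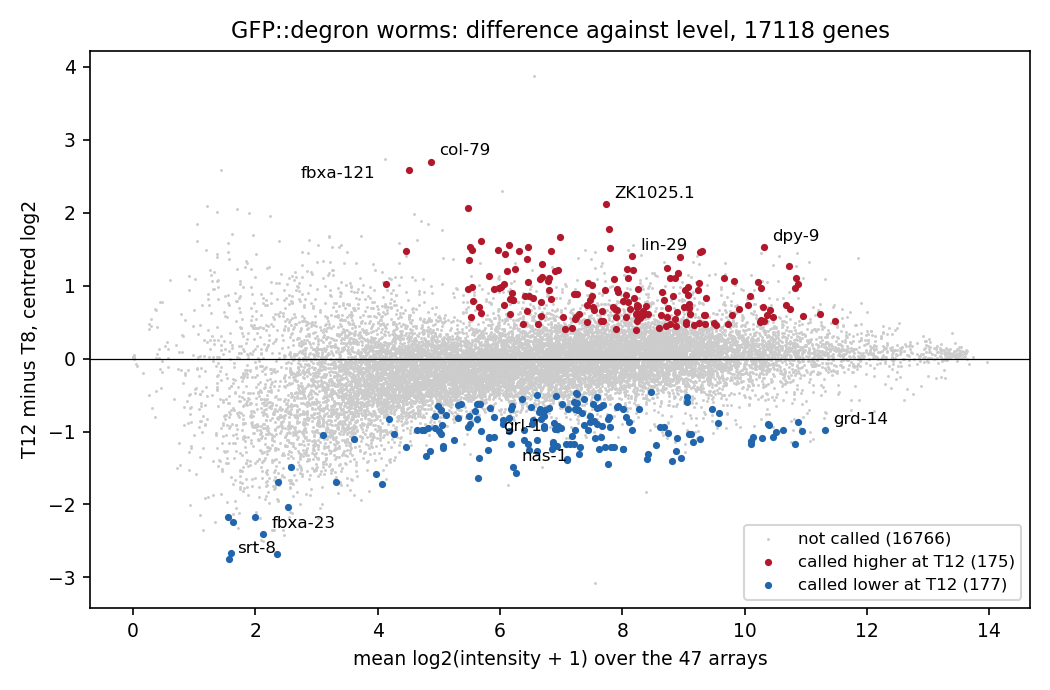
Difference between T12 and T8 in GFP::degron worms (vertical, centred log2) against mean log2(intensity + 1) (horizontal), 1 point per gene. The mean is over the 9 GFP::degron arrays of T8 and T12, not the 47 arrays named on the axis. Red points are the 175 genes called higher and blue points the 177 called lower; the largest falls lie among the dimmest genes, whereas the called rises begin above a level of 4.

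Collagens of the cuticle furrows were at higher levels at T12. All 5 measured members of the list (dpy-2, dpy-3, dpy-7, dpy-8 and dpy-9, whose loss gives short, fat worms) were 1.38 to 1.53 higher, with every T12 array above every T8 array, yet only dpy-9 passed the test. Over all genes, 4.01% were separated upwards in this way and 1.02% were called higher. The level of dpy-9 was 3.33, 3.35, 3.18 and 1.77 in the 4 T8 arrays and 4.45, 4.67, 4.55, 4.42 and 4.11 in the 5 T12 arrays. The T12 arrays lay close together, and T8 repeat 4 lay far below the other T8 arrays. This made a 2.89-fold rise (difference 1.53 ± 0.42 SE, adjusted p = 0.0491), which was lost in 8 of the 9 fits that left out 1 GFP::degron array, in which the difference ran from 1.15 to 1.68; it stayed called without T12 repeat 5. The other members missed the threshold, only dpy-7 narrowly with an adjusted p of 0.05004. The adjusted p was 0.0715 for dpy-3, 0.0727 for dpy-8 and 0.0903 for dpy-2. In dpy-7 the T8 arrays were at 3.25, 3.39, 3.07 and 1.94 and the T12 arrays at 4.30, 4.67, 4.34, 4.36 and 4.11, again with T8 repeat 4 lowest. The median difference of the list was 1.44 and fell to 1.07 without T8 repeat 4, against -0.05 over all genes.

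Other genes that build the cuticle were mixed, beside 1.02% called higher and 1.03% called lower over all genes. Of 11 body-shape collagens, lon-3, a collagen that sets body length, rose 2.1-fold (1.07 ± 0.26 SE, adjusted p = 0.0254), and all 11 had differences above 0 with a median of 0.35. Its T8 arrays were at 3.03, 3.04, 2.76 and 1.86 and its T12 arrays at 3.74, 4.00, 3.80, 3.36 and 3.80, without overlap and again with T8 repeat 4 lowest. The call of lon-3 was lost without T8 repeat 4, T12 repeat 2 or T12 repeat 3. Among 14 collagen and cuticle processing enzymes, phy-2, a subunit of the prolyl 4-hydroxylase that stabilises collagen, rose 1.96-fold (0.97 ± 0.21 SE, adjusted p = 0.0142). Its levels were 3.52, 3.14, 3.32 and 2.70 at T8 and 3.89, 4.35, 4.28, 4.19 and 4.00 at T12, and the call was lost without T8 repeat 4. In 7 of the 14 enzymes all T12 arrays lay above all T8 arrays, against 4.01% of all genes. In nas-36 all lay below.

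The 128 collagens known by col numbers split, with 3 called higher and 5 lower, against 1.02% and 1.03% of all genes. Their median was -0.28. Of the higher ones, col-128 rose 2.63-fold (1.40 ± 0.34 SE, adjusted p = 0.0256), from 1.54, 2.04, 2.09 and 0.79 to 2.87, 3.22, 3.14, 2.85 and 2.99, and lost its call without T8 repeat 4, T12 repeat 2 or T12 repeat 3. A second riser, col-149, was 1.11 ± 0.24 (SE) higher (adjusted p = 0.0142), although its other probe set had a difference of -0.18 and the call was lost without T8 repeat 4. The largest difference belonged to col-79, at -6.33, -1.95, -1.45 and -3.01 at T8 and -0.42, -0.27, -0.51, -0.45 and -0.77 at T12. The groups did not overlap, but T8 repeat 1 was near 0 in intensity: the difference was 2.70 ± 0.56 (SE, adjusted p = 0.0101) with it and 1.65 without it. Among the fallers was col-91 (-1.08 ± 0.28 SE, adjusted p = 0.0356), whose T8 repeat 2 at 3.62 lay below T12 repeat 2 at 3.72. Of 7 adult-stage collagens, 0 were called; bli-2, a collagen of the struts of the adult cuticle, had the smallest p, with a difference of 2.30 ± 0.65 (SE, adjusted p = 0.0555) and T8 repeat 3 at 0.12 far above the other T8 arrays at -2.67 to -2.10.

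No gene of the 24 in the molting list passed, although 8 had all T12 arrays above all T8 arrays and 2 all below. Over all genes these shares were 4.01% and 4.39%. The median of the list was 0.59. The member with the smallest p was sym-1, a secreted leucine-rich repeat protein, at 3.39, 4.01, 4.11 and 2.79 at T8 and 4.74, 5.05, 4.99, 4.71 and 4.71 at T12 (difference 1.27 ± 0.38 SE, adjusted p = 0.0692). The median of the list was 0.40 without T8 repeat 4, the array with the lowest values for this list as well as for the furrow collagens.

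**Figure D2:**
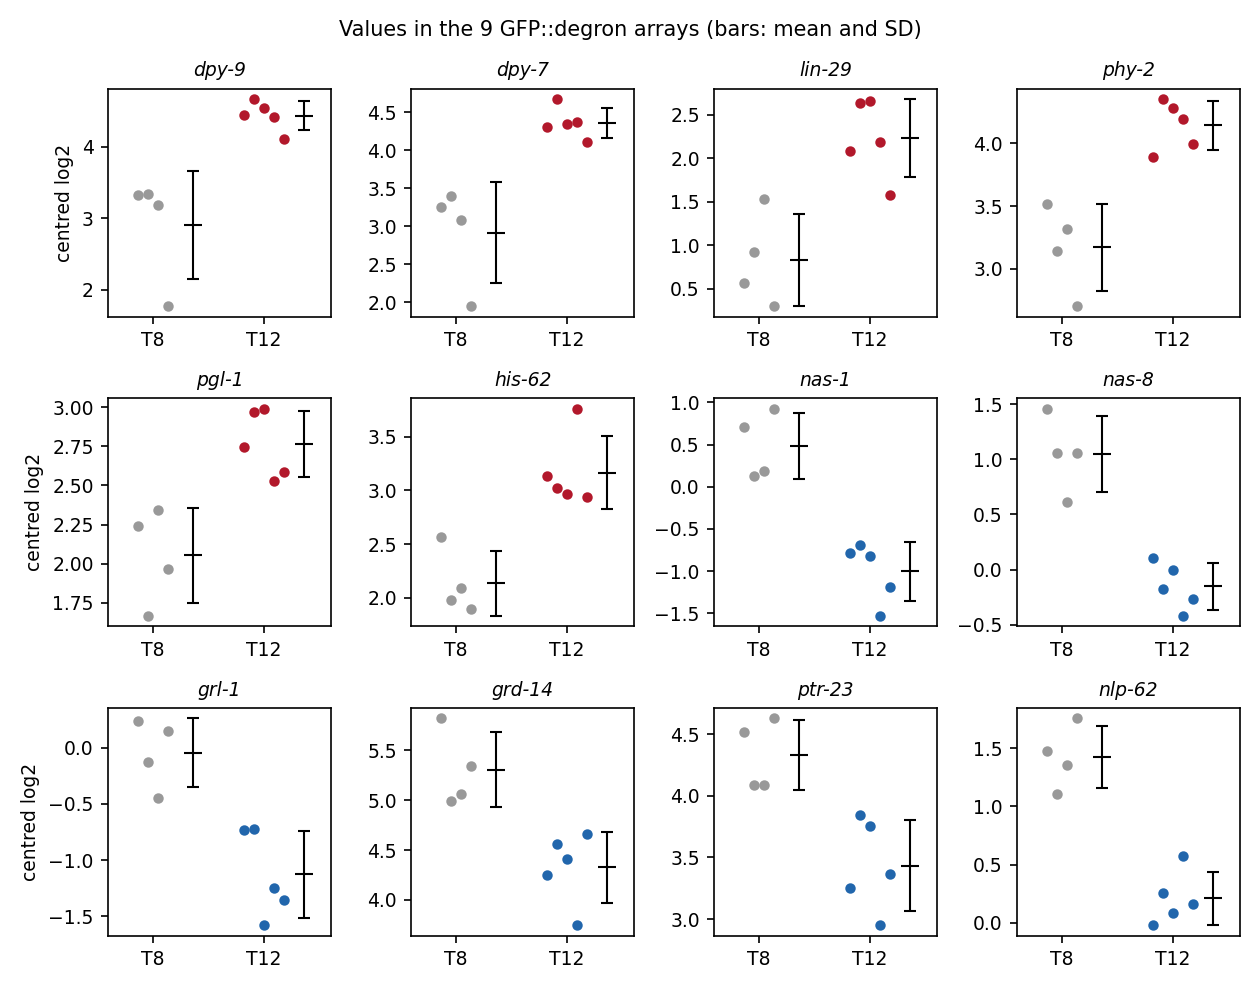
Centred log2 levels of 12 genes in each of the 4 T8 arrays (grey) and 5 T12 arrays (red where higher, blue where lower), with the mean and SD beside them. T8 repeat 4, the rightmost grey point, is lowest for dpy-9 (1.77) and dpy-7 (1.94), and the groups do not overlap in any of the 12 genes shown.

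Astacins, secreted zinc proteases of which some open or remodel the cuticle, were lower at T12. Of 33 measured, 6 fell (18.2%, against 1.03% of all genes) and 0 rose, and 26 had differences below 0, with a median of -0.40. In nas-1 the T8 arrays were at 0.71, 0.13, 0.18 and 0.92 and the T12 arrays at -0.79, -0.69, -0.82, -1.53 and -1.19. The groups were well apart, a 2.80-fold fall (-1.49 ± 0.29 SE, adjusted p = 0.00699). In nas-8 they were at 1.46, 1.06, 0.61 and 1.06 against 0.11, -0.18, 0.00, -0.42 and -0.27 (difference -1.20 ± 0.25 SE, adjusted p = 0.0102). The other 4 fallers were nas-12 (-1.12, adjusted p = 0.0442), nas-30 (-1.07, adjusted p = 0.0346), nas-13 (-0.94, adjusted p = 0.0142) and nas-28 (-0.66, adjusted p = 0.0381), and in nas-12 T8 repeat 3 at -0.54 overlapped T12. In the fits that left out 1 GFP::degron array, the number of falling astacins ranged from 2, without T8 repeat 2 or without T8 repeat 4, to 7, without T8 repeat 3. It was 3 without T8 repeat 1, T12 repeat 2 or T12 repeat 4. The 9 compared arrays alone gave 0 falls, and array weights gave 11 falls and 1 rise. With a pseudocount of 16 the median of the list was -0.28.

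Secreted and membrane proteins related to hedgehog signalling, which act in the epidermis and its cuticle in this animal, gave 4 called falls and 0 called rises. Of 54 hedgehog-related genes 2 fell, against 1.03% of all genes. The level of grl-1 was 0.24, -0.12, -0.44 and 0.14 at T8 and -0.73, -0.72, -1.58, -1.25 and -1.35 at T12, all lower (-1.08 ± 0.18 SE, adjusted p = 0.00209). The bright grd-14 went from 5.82, 4.99, 5.06 and 5.35 to 4.25, 4.56, 4.41, 3.75 and 4.66 (-0.98 ± 0.24 SE, adjusted p = 0.0272). Its call was lost without T8 repeat 1, T8 repeat 4, T12 repeat 1, T12 repeat 3 or T12 repeat 4. Of 27 patched-related genes, which code for membrane proteins resembling the hedgehog receptor, 2 fell, against the same 1.03%. In ptr-23 the T8 arrays were at 4.52, 4.09, 4.08 and 4.63 and the T12 arrays at 3.25, 3.84, 3.75, 2.95 and 3.36 (-0.90 ± 0.21 SE, adjusted p = 0.0189), and its other 3 probe sets gave -0.95, -0.70 and -0.85. The call of ptr-23 was lost without T8 repeat 4 or T12 repeat 4, and that of ptr-3 (-0.87 ± 0.21 SE, adjusted p = 0.0203) also without T8 repeat 1. Medians of these lists were near that of all genes, at -0.07 and -0.13. Both lists went in both directions among genes that were not called. All T12 arrays lay above all T8 arrays in wrt-10 (1.33), wrt-4 (1.17), wrt-1 (1.06), wrt-2 (1.05) and grl-10 (0.90). The same held for ptr-10 (0.98), ptr-15 (0.97) and ptr-14 (0.39). All T12 arrays lay below in grl-4 (-0.97) and grd-5 (-0.58). Among 34 cuticlins, ZP-domain proteins of the cuticle, 5 had all T12 arrays below all T8 arrays, against 4.39% of all genes. Called lower, against 1.03% of all genes, were cutl-5 (-0.67 ± 0.16 SE, adjusted p = 0.0272) and cut-4 (-0.65 ± 0.17 SE, adjusted p = 0.0442). Each of those calls was lost in at least 6 of the 9 fits without 1 array.

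Among regulators of epidermal timing, lin-29, the zinc-finger factor that acts at the larval-to-adult switch, rose 2.64-fold. Its T8 arrays were at 0.57, 0.92, 1.53 and 0.30 and its T12 arrays at 2.08, 2.64, 2.66, 2.18 and 1.58, a difference of 1.40 ± 0.25 (SE, adjusted p = 0.00407). T12 repeat 5 lay just above T8 repeat 3, and no arrays overlapped. The nuclear receptor nhr-85 also rose, from -0.99, -1.22, -1.30 and -1.32 to -0.75, -0.58, -0.44, -0.35 and -0.82 (0.62 ± 0.15 SE, adjusted p = 0.0259); it stayed called only without T8 repeat 1, T12 repeat 1 or T12 repeat 5. These were the 2 called of 13 molting and epidermal transcription factors, and lin-29 was the 1 called of 16 heterochronic genes, whose median was -0.06. Over all genes 1.02% were called higher. In the vulva and gonad development list 0 of 17 genes passed.

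The large family of nuclear hormone receptors, ligand-binding transcription factors, gave 2 rises and 4 falls among 254 genes, shares near the 1.02% and 1.03% of all genes, with a median of -0.22. Besides nhr-85, nhr-91 rose 2.13-fold, from 0.98, 0.79, 0.67 and 0.38 to 1.70, 2.05, 2.03, 1.66 and 1.55 (1.09 ± 0.24 SE, adjusted p = 0.0151), a call lost without T8 repeat 4. The fallers were nhr-270 (-1.05, adjusted p = 0.0368), nhr-171 (-0.95, adjusted p = 0.0183), nhr-107 (-0.63, adjusted p = 0.0420) and nhr-170. At intensities of 3.64 to 13.7, nhr-270 was among the dim genes, which were lower at T12 as a class.

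Of 23 genes of P granules, the RNA-rich bodies of germ cells, and germline small RNA pathways, 4 rose (gld-3, fbf-1, pgl-1 and deps-1) and 0 fell. Over all genes 1.02% rose and 1.03% fell. Differences were above 0 in 20 of the 23, with a median of 0.47. For pgl-1, a P granule scaffold, the T8 arrays were at 2.24, 1.67, 2.34 and 1.97 and the T12 arrays at 2.75, 2.97, 2.99, 2.53 and 2.59. T12 was higher in every array, a 1.64-fold rise (0.71 ± 0.17 SE, adjusted p = 0.0259). The RNA-binding protein fbf-1, which keeps germline stem cells, went from 0.03, -0.05, 0.40 and 0.46 to 1.11, 1.32, 1.35, 1.15 and 0.55 (0.89 ± 0.19 SE, adjusted p = 0.0142). T12 repeat 5 lay only just above T8. P granule assembly factor deps-1 was at 1.07, 0.74, 1.13 and 0.67 against 1.76, 1.79, 1.69, 1.55 and 1.27 (0.71 ± 0.18 SE, adjusted p = 0.0314). The probe set of gld-3, a translational regulator of germ cells, rose by 0.99 ± 0.23 (SE, adjusted p = 0.0181), whereas its other probe sets gave 0.11 and 0.40. The number called was 1 without T8 repeat 2 or T12 repeat 2, 2 without T8 repeat 4 or T12 repeat 3, and 6 without T8 repeat 3. The 9 compared arrays alone gave 0, and array weights gave 15.

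Of 24 genes of the meiotic axis, synapsis and recombination, htp-3, a protein of the chromosome axis, was the 1 that rose (0.86 ± 0.23 SE, adjusted p = 0.0442). Its T8 arrays were at 0.35, 0.22, 0.95 and 0.36 and its T12 arrays at 1.51, 1.53, 1.62, 1.07 and 0.91, so that T12 repeat 5 overlapped T8 repeat 3; the call was lost in 6 of the 9 fits without 1 array. Differences were above 0 in 22 of the 24, with a median of 0.37. For this list and the next 2, the share called higher over all genes was 1.02%. Among 32 S-phase and cell cycle genes, 12 had all T12 arrays above all T8 arrays, against 4.01% of all genes. The 1 called was top-2, a DNA topoisomerase, which rose (0.69 ± 0.18 SE, adjusted p = 0.0409). It went from 1.90, 2.24, 2.43 and 2.07 to 2.88, 3.21, 2.96, 2.61 and 2.57, and its call too was lost in 6 of the 9 fits. The core histone gene his-62 rose 2.05-fold (1.03 ± 0.20 SE, adjusted p = 0.00718), from 2.57, 1.98, 2.09 and 1.89 to 3.13, 3.02, 2.97, 3.76 and 2.94. It was 1 of 26 histone genes, 7 of which were separated upwards, against 4.01% of all genes. Near-identical histone genes can share probes, so its signal may belong in part to others.

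Genes of later gametes did not pass. None of 23 major sperm proteins, 57 other spermatogenesis genes or 5 vitellogenins was called. Sperm markers msp-3 and gsp-3 averaged -1.02 and -4.11 at T8 and -0.96 and -4.55 at T12, and the yolk gene vit-2 -5.08 and -5.73. The other yolk marker, vit-6, was at 0.77 and 0.73. These lists were not uniformly dim. At T8 and T12, msp-19 averaged 2.24 and 2.49, ssq-1 3.28 and 3.095, and vit-4 2.30 and 2.39. Of 26 oocyte and eggshell genes 1 rose, against 1.02% of all genes. It was egg-6 (0.92 ± 0.21 SE, adjusted p = 0.0184), a leucine-rich repeat protein best known from the excretory duct rather than the egg. Its arrays were at 1.58, 1.94, 1.85 and 0.99 at T8 and 2.30, 2.77, 2.65, 2.52 and 2.28 at T12, and its other probe set gave 1.12.

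Of 83 neuropeptide genes 2 fell, nlp-62 and nlp-24, against 1.03% of all genes. The level of nlp-62 was 1.47, 1.11, 1.36 and 1.76 at T8 and -0.02, 0.26, 0.08, 0.57 and 0.16 at T12, clearly apart (-1.21 ± 0.31 SE, adjusted p = 0.0342), and nlp-24 went from 3.18, 2.72, 3.05 and 3.65 to 2.19, 2.33, 2.21, 1.52 and 2.31 (-1.04 ± 0.28 SE, adjusted p = 0.0413). Neither call was steady: that of nlp-62 was lost in 6 of the 9 fits without 1 array and that of nlp-24 in 7. The 25 neuronal markers had 0 calls and a median of -0.12. The lists for muscle, pharynx and intestine gave no calls: 35 body-wall muscle, 15 pharyngeal and 20 intestinal genes had medians of -0.01, -0.12 and 0.06. Families of pharyngeal cuticle proteins, given under other observations, are not in these lists. Defining markers were present in the 9 arrays, with muscle myosin unc-54 at 5.52 and 5.65, intestinal actin act-5 at 5.87 and 5.99 and synaptobrevin snb-1 at 4.08 and 3.96 at T8 and T12.

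Stress and housekeeping lists held few calls, beside 1.02% called higher and 1.03% called lower over all genes. Cytosolic heat shock genes (22), ER stress genes (19), mitochondrial stress genes (10), ubiquitin and selective degradation genes (18), autophagy genes (22), ribosomal proteins (62) and oxidative phosphorylation genes (56) had 0. Of 33 proteasome genes 1 rose, rpn-6.2, a paralog of the lid subunit rpn-6, from -0.77, -0.73, -0.12 and -0.38 to 1.37, 1.53, 1.58, 1.04 and 0.32 (1.67 ± 0.34 SE, adjusted p = 0.00818). The other proteasome genes did not pass, and the list's median was 0.23. Only rpn-10 (-0.07) and rpn-6.1 (-0.02) had differences below 0. The mean level of the list was 3.59 at T8 and 3.88 at T12. In GFP worms these means were 3.84 and 4.02, and in Abeta worms 3.67 and 3.98. Glutathione peroxidase gpx-1 fell among 18 oxidative stress genes (-0.52 ± 0.12 SE, adjusted p = 0.0155), from 2.97, 2.69, 2.68 and 2.86 to 2.14, 2.40, 2.14, 2.13 and 2.58, a call lost without T8 repeat 4. C-type lectins (220 genes) and UDP-glucuronosyltransferases (64 genes) each gave 1 rise and 1 fall, against 1.02% and 1.03% of all genes. The differences were clec-91 1.11, clec-134 -1.21, ugt-60 0.59 and ugt-54 -1.26. In all, 24 of the 45 lists had 0 called genes.

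**Figure D3:**
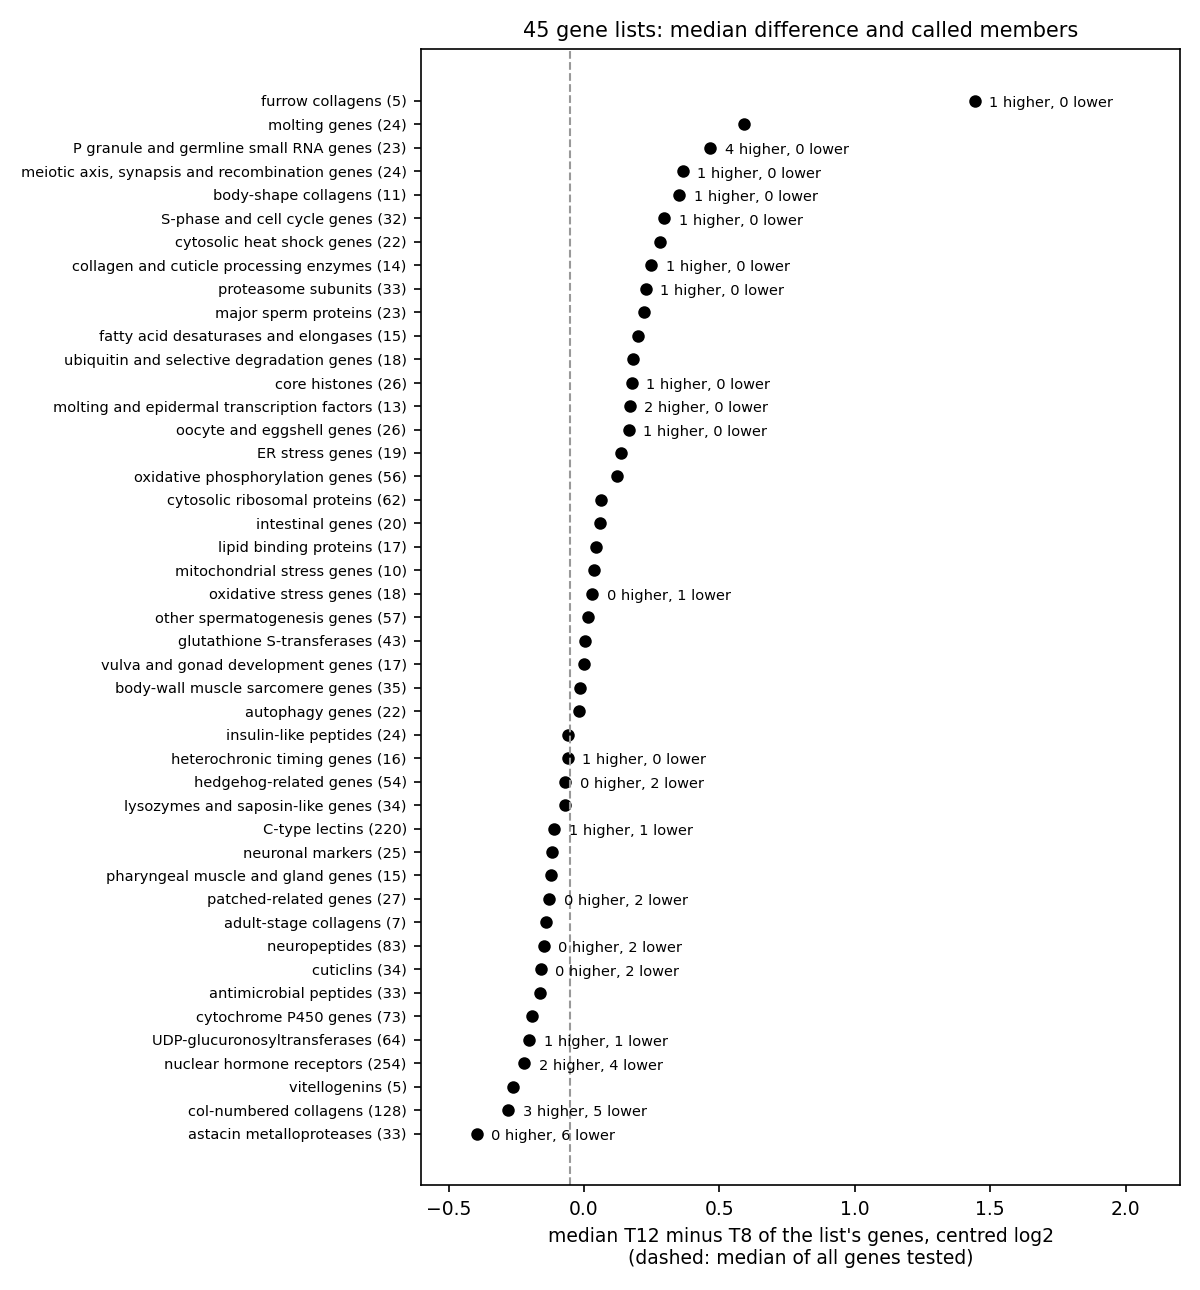
Median difference between T12 and T8 (horizontal, centred log2) of the measured genes in each of 45 lists, with the number of genes in brackets and, where any were called, the number higher and lower. The furrow collagens lie highest at 1.44 and the astacins lowest at -0.40; the dashed line is the median of all 17118 genes, -0.05.

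Of the called genes without overlap between T8 and T12, the 12 with the largest rises began with col-79. F-box gene fbxa-121, of a family thought to pick proteins for ubiquitination, was at -6.38, -2.64, -2.14 and -2.73 at T8 and -0.62, -0.46, -0.75, -1.02 and -1.59 at T12. T8 repeat 1 was near 0 in intensity: the difference was 2.59 ± 0.58 (SE, adjusted p = 0.0155) with it and, without it, 1.62 and not called. ZK1025.1 went from -0.55, 0.04, 0.60 and -0.10 to 2.39, 2.42, 2.58, 1.65 and 1.52 (2.11 ± 0.35 SE, adjusted p = 0.00136), although its other probe set gave 0.28. The nuclear cap-binding gene ncbp-2 differed by 2.07, with T8 repeat 1 at -1.08 and the other T8 arrays at -2.65 to -2.50, and its call was lost in 7 of the 9 fits without 1 array. The rest of the 12 were D1086.3 (1.78), rpn-6.2, C55C3.3 (1.61), Y57A10A.3 (1.56), dpy-9, Y73B3B.3 (1.53), Y43F11A.6 (1.53) and F23D12.1 (1.51).

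The 12 largest falls among called genes without overlap were mostly in very dim genes. The chemoreceptor srt-8 was at -2.83, -2.56, -4.89 and -3.58 at T8 and -6.73, -4.91, -6.46, -6.61 and -6.34 at T12 (-2.74 ± 0.59 SE, adjusted p = 0.0135). Its T12 arrays other than repeat 2 lay close to an intensity of 0, where the added 1 sets the size of a difference. At least 1 array was under an intensity of 1 in F46F5.11 (-2.68), T01G5.6 (-2.66), fbxa-23 (-2.40), T01B7.1 (-2.03), srsx-22 (-1.69) and Y75B7B.2 (-1.49), and the differences of gtnt-35 (-1.69), T22B7.7 (-1.71) and dgk-3 (-1.58) also came from dim arrays. Better measured were C06A1.6 (-1.63 ± 0.40 SE, adjusted p = 0.0259) and T28C12.6, which went from 0.94, 0.47, -0.08 and 0.98 to -0.58, -1.13, -1.26, -0.52 and -1.46 (-1.57 ± 0.25 SE, adjusted p = 0.00136).

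Set in the whole course of GFP::degron worms, the lists followed different paths. Furrow collagens had a mean level of 4.52 at T0, 5.05 at T4, 3.67, 3.92, 3.73 and 2.33 in the T8 arrays, 4.78, 5.14, 4.96, 4.82 and 4.57 in the T12 arrays, 3.24 ± 0.47 (SD, n = 4) at T16 and 3.95 at T20. The T12 level was thus a second high after that of T4, followed by a lower level at T16. P granule and small RNA genes were at 0.54 at T0, 0.79 at T4, 1.06 to 1.43 at T8, 1.34 to 1.80 at T12, 1.72 ± 0.05 (SD, n = 4) at T16 and 1.99 at T20, each time above the one before in its mean. Astacins were at -0.06 to 0.25 at T8 and -0.39 to -0.17 at T12, without overlap, and at -0.08 ± 0.15 (SD, n = 4) at T16. Major sperm proteins were at -1.61 to -0.69 at T8 and -1.19 to -0.56 at T12, and at 0.19, 6.35, 3.17 and 2.15 in the 4 T16 arrays. T0, T4 and T20 have 1 array each and no replicate check, and no test was made across this course.

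**Figure D4:**
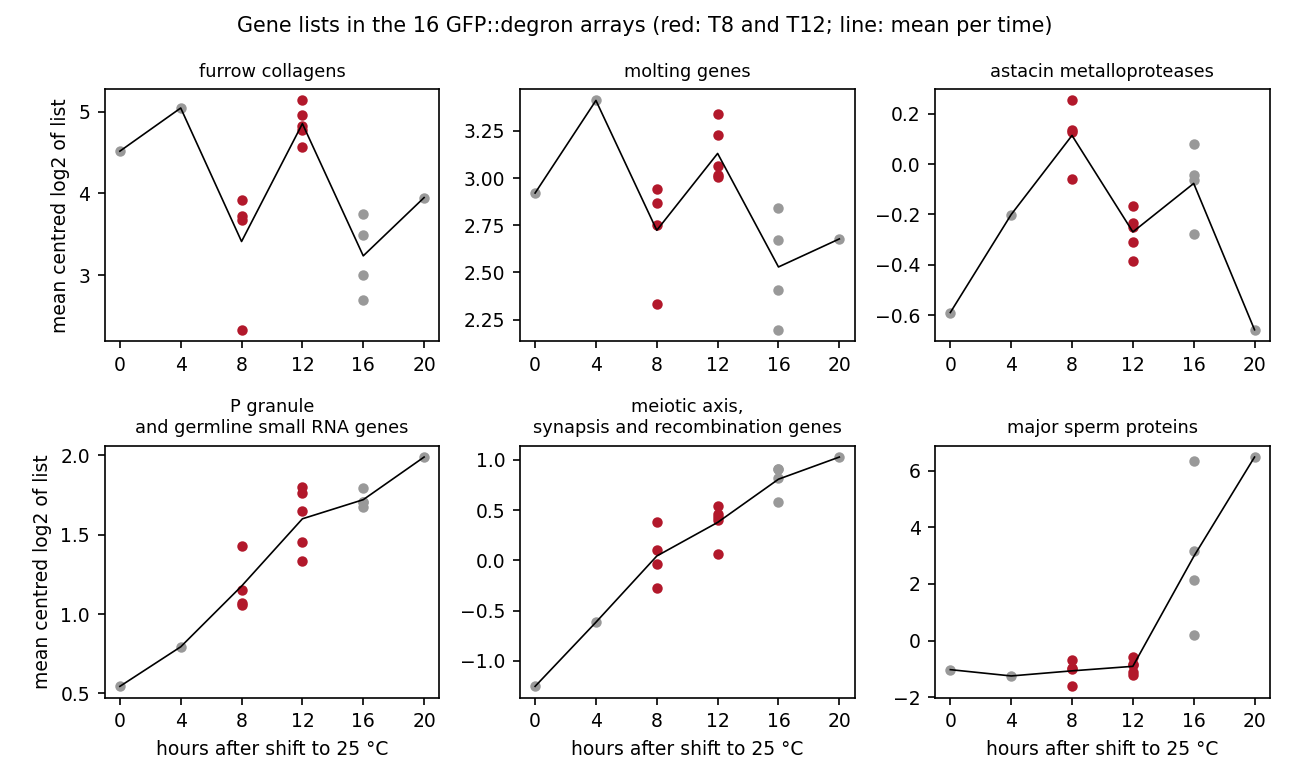
Mean centred log2 level of the genes of 6 lists in each of the 16 GFP::degron arrays against hours after the shift to 25 °C, with a line through the mean per time and T8 and T12 in red. Furrow collagens are high at 4 and 12 hours and lower at 8 and 16 hours, the germ granule list climbs throughout, and major sperm proteins stay low up to 12 hours.

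Worms of the other genotypes were measured at the same times on separate arrays. From T8 to T12, 82 genes passed in GFP worms (0.479%; 3 T8 and 5 T12 arrays) and 97 in Abeta worms (0.567%; 4 and 4 arrays). These lower counts do not show a smaller change. At an unadjusted p under 0.05 (limma), 3211 genes (18.8%) were counted in GFP and 3204 (18.7%) in Abeta worms. GFP::degron worms had 3001 (17.5%). Of the 352 genes called in GFP::degron worms, 318 (90.3%) had the same sign in GFP worms and 315 (89.5%) in Abeta worms, against 68.3% and 71.7% of all genes. The 175 higher genes had a median of 0.33 in GFP and 0.46 in Abeta worms, and the 177 lower genes medians of -0.19 and -0.25. With GFP worms 21 calls were shared in direction, 5.97% of the GFP::degron calls and 25.6% of the GFP calls. With Abeta worms 26 were shared, 7.39% and 26.8%. ZK1025.1 was one of those called in both, at 1.75 (adjusted p = 0.0235) in GFP and 1.93 (adjusted p = 0.0136) in Abeta worms.

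Whether the change itself differed between genotypes was tested directly. Against GFP worms 0 of 17118 genes passed (0%; 1013 genes, 5.92%, at an unadjusted p under 0.05, limma), but 1066 passed with limma's array weights, which give less weight to arrays that lie far from their group. Against Abeta worms 1 passed with or without weights (0.00584%; 828 genes, 4.84%, unadjusted and without weights). For the furrow collagens, dpy-9 differed by 0.13 in GFP and 0.55 in Abeta worms beside 1.53, and the difference of 1.40 from GFP worms had an adjusted p of 0.822. For nas-1 the values were -0.14 and -0.34 beside -1.49, with an adjusted p of 0.752 for the difference from GFP worms. Without weights neither was shown to be particular to GFP::degron worms. The 1 gene that passed was pugs-8, at 2.19, 1.69, 2.26 and 1.56 in the T8 arrays and 3.42, 3.82, 3.38, 3.08 and 3.28 in the T12 arrays of GFP::degron worms. It rose by 1.47 ± 0.23 (SE, adjusted p = 0.00136), against a difference of -0.48 in Abeta worms (adjusted p = 0.294), so that the changes differed by 1.95 (adjusted p = 0.0481). That call was lost without any one of 7 GFP::degron arrays, T8 repeats 1, 2 and 4 and T12 repeats 1, 2, 3 and 5, and without Abeta T8 repeats 1, 2 and 4 or Abeta T12 repeats 1, 2 and 3.

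**Figure D5:**
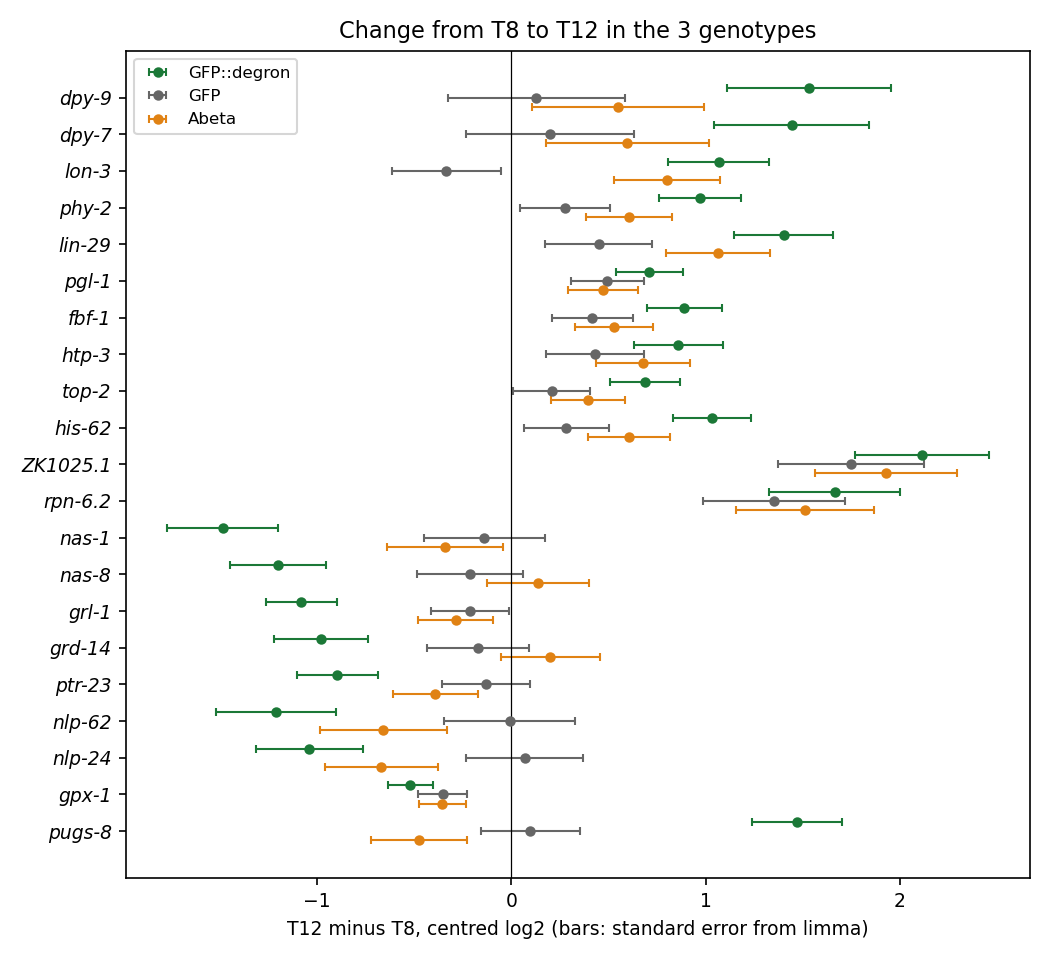
Difference between T12 and T8 (horizontal, centred log2, bars are standard errors from limma) of 21 genes in GFP::degron (green), GFP (grey) and Abeta (orange) worms. ZK1025.1 and rpn-6.2 have like values in all 3 genotypes, while nas-1 and dpy-9 are farther from 0 in GFP::degron worms, a difference from GFP worms that did not pass its test without array weights.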

How the data were processed

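Each sample was hybridised to 1 Affymetrix array from 5 µg of total RNA, extracted with an RNeasy kit, per the labels' protocols. The authors deposited linear intensity values per probe set, and the submitters' processing notes name Affymetrix Expression Console 1.1. Which algorithm and scaling it ran is not given in the sources used here. Detection calls were not used here. Of 22625 probe sets, 77 controls were left out, 20766 name 1 gene, 887 several and 895 none in the platform annotation, and 20701 matched RefSeq (WBcel235). The brightest probe set of each gene over 47 arrays gave 17118 genes.

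Intensities became log2(intensity + 1), centred on each array's median; the added 1 compresses differences of dim genes. limma 3.58.1 in R 4.3.3 fitted 1 mean per genotype and time (9 groups, 37 arrays of T8, T12 and T16, 28 residual degrees of freedom) with eBayes and Benjamini-Hochberg adjustment, threshold 0.05. Errors are SE of differences or SD between arrays, and the number of arrays limits the precision. Replicates are those labelled as biological repeats. The code was tested on simulated data. The comparison, the gene lists and the checks were chosen with earlier results of these data known.

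Genes with full values were the 12 largest rises and falls among called genes without overlap between T8 and T12, up to 4 called genes per list (or the smallest p where none was called), and up to 8 per genotype comparison; dpy-2, dpy-3, dpy-7 and dpy-8 were added after their values were seen. Same-numbered T8 and T12 repeats had deviations correlated at -0.17, -0.16, -0.07 and 0.20. So few values cannot settle whether repeat numbers pair the samples, and the main fit did not pair them. Alternatives were the arrays in the fit, no centring, quantile normalization, a pseudocount of 16, a minimum level, array weights, every probe set, and leaving out each array. Plots used python 3.11.15, pandas 2.3.3 and matplotlib 3.10.9. Sequences were not used here.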

Additional observations from a re-analysis of the deposited data

Results flagged for a closer look

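Of 268 sets of 4 or 5 arrays tested (the named genes and lists, in each group), 16 had 1 array far from the others by Dixon's criterion (5.97%), where chance gives about 1 in 20. T8 repeat 1 was that array in 5: fbxa-121 at -6.38, ncbp-2 at -1.08, intestinal genes at 4.14, oxidative phosphorylation genes at 4.57 and nuclear hormone receptors at -0.94. T8 repeat 4 was it for dpy-9 at 1.77, dpy-3 at 2.21 and the furrow collagens at 2.33. The molting and epidermal transcription factors stood at 1.11 in T8 repeat 2 and the neuronal markers at 1.08 in T8 repeat 3. Among T12 arrays, repeat 4 stood apart for T01G5.6 at -4.92, nas-30 at -0.14, his-62 at 3.76 and nlp-24 at 1.52, repeat 2 for srt-8 at -4.91 and repeat 5 for Y57A10A.3 at -0.18. The change of pugs-8 differed between GFP::degron and Abeta worms by 1.95.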

How the results depend on the processing

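The 61 called named genes kept their direction in each fit that gave all 61 a value, and so did the 49 tested among genes above log2 5; they were not compared one by one in the fit of every probe set. The number called moved. Of 1678 values of named genes under alternatives, 1184 kept their side of the threshold, 433 lost it, 61 gained it and 0 reversed. Of 855 list medians 843 moved by less than the spread between arrays. From the 352 calls, the 9 arrays alone gave 4 (3 higher, 1 lower), the same 9 with a replicate block 0 (2934 genes at an unadjusted p under 0.05), the 13 GFP::degron arrays of 3 times 224 (155 shared), all 38 arrays 213, array weights 2666 (1362 higher, 1304 lower), and the 8 arrays left after T8 repeat 1, a fit added after seeing the data, 133 (91 higher, 42 lower, 57 shared). No centring gave 384, quantile normalization 470, a pseudocount of 16 491 and genes above log2 5 517 of 12191. Leaving out 1 array gave 64 to 434, with 177 without T8 repeat 2, 144 without T12 repeat 2 and 159 without T12 repeat 3. The difference from GFP worms gave 0 calls, 0 with a replicate block (699 at an unadjusted p under 0.05), 1066 with array weights, and 0 to 1 without 1 array. The difference from Abeta worms gave 1 call, 0 with a replicate block (852 unadjusted), with 38 arrays, without centring, with quantile normalization and with every probe set, and 0 to 2 without 1 array. The cause was not tested; the fits on 9, 8 or 13 arrays and those without 1 array have fewer samples by construction. Signal near 0 limits the dimmest genes.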

Other observations

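Families chosen after their values were seen gave further counts, which support nothing by themselves. Over all genes 1.02% rose and 1.03% fell. Families of low-complexity secreted proteins, known from the pharyngeal cuticle, were lower at T12: abu (2 of 11 fell, 0 rose, median -0.84), idpp (4 of 16 fell, 0 rose, median -0.67) and nspb (3 of 4 fell, 0 rose, median -1.23). The mean of the abu genes was 2.90, 2.62, 2.40 and 2.86 in the T8 arrays and 2.05, 1.83, 2.25, 1.5 and 2.21 in the T12 arrays, without overlap. The nspb mean was 2.80, 2.12, 2.30 and 3.17 at T8 and 1.40, 1.72, 1.59, 0.61 and 1.78 at T12, also without overlap. Fallers included abu-11 (-1.13, adjusted p = 0.0290), abu-8 (-1.17, adjusted p = 0.0479), idpp-8 (-1.24, adjusted p = 0.00718), idpp-11 (-1.17, adjusted p = 0.00718) and nspb-10 (-1.36, adjusted p = 0.0263). In GFP worms the medians were -0.06, -0.21 and 0.07 and in Abeta worms -0.20, -0.12 and -0.59 for abu, idpp and nspb genes. Several of these genes have near-identical copies that can share probes.

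Of 171 fbxa F-box genes 7 rose and 1 fell, against 1.02% and 1.03% of all genes. The mean level of the family was nonetheless lower at T12, at -1.59 at T8 and -1.78 at T12 (difference -0.19). Also called higher in GFP worms were 5 of the fbxa risers, fbxa-106, fbxa-122, fbxa-123, fbxa-124 and fbxa-211. The difference of fbxa-124 was 0.96 (adjusted p = 0.00718) in GFP::degron, 1.24 (adjusted p = 0.00173) in GFP and 1.22 (adjusted p = 0.00512) in Abeta worms. Of 1276 chemoreceptor genes 9 fell, a smaller share than the 1.03% of all genes, and 0 rose, with a median of -0.26 and a median level of 3.89, in the range where genes were lower as a class.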
